A study of Homo sapiens with 12 samples.

Results

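HCT116 is an established human colon carcinoma cell line, and its single-cell libraries numbered 2, called cell 2 below, are described here against those numbered 1, 3 and 4. They were selected on the number of detected genes, which was the lowest in both arms of the study for number 2. They are 2 of the 8 single-cell libraries, which stand among 12 libraries in all. The study tested scDASH, in which Cas9 with guides against ribosomal RNA (rRNA) cuts the amplified rRNA fragments out of a finished library, so that fewer reads are spent on them. Total RNA of each cell was amplified by MATQ-seq, which primes along whole transcripts and also captures RNA without a poly(A) tail. The groups were DASHed single cells (4 libraries), untreated single cells (4 libraries), DASHed mini-bulk (2 libraries) and untreated mini-bulk (2 libraries), where mini-bulk is a small bulk sample of the same line. All 12 libraries came from HCT116, and only those labelled as rRNA-depleted went through scDASH. No drug, genetic change, time point or culture is given in the labels, and 1 cell line is a narrow model of colon epithelium.

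The labels do not say whether DASHed cell 2 and untreated cell 2 are the same cell, but across 7827 genes their differences from the other cells of their arm correlated at 0.94 (Pearson), as did those of the other same-numbered pairs at 0.93 to 0.94. Differently numbered pairs correlated at -0.38 to -0.24. Deviations of the cells of an arm cancel out for each gene, so negative values there follow from the calculation and add no evidence. Going by the same-numbered pairs, the libraries of number 2 may hold 1 cell measured with and without scDASH. As scDASH acts on a finished library, the second arm is then no repeat of the biology, the capture or the amplification. With 1 library of number 2 in each arm, and arms that may share a cell, no difference was tested and no p-value is given. Values are a description of these libraries, all taken from the contrast that chose cell 2. Each statement below rests on both arms unless said otherwise, except that medians of gene lists average over the arms, which can differ in sign.

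A cultured cell at any moment holds only part of the transcripts of its population. Many genes are transcribed in bursts, so a gene with a low average level has many copies in one cell and none in the next. The cell cycle, the supply of growth factors and stress add differences that move whole groups of genes. Immediate-early genes such as EGR1 and JUNB are switched on within minutes of a growth factor or stress signal without new protein synthesis, and they are among the transcripts that differ most from cell to cell.

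The total of estimated counts was the lowest of its arm in both libraries of cell 2. DASHed cell 2 held 1018874 counts, against 1325985 to 1573651 in the other DASHed cells. Untreated cell 2 held 5545355 counts, against 5667367 to 6008358. Epithelial markers were present in both: 6 of 10 had a count in DASHed cell 2 and 9 of 10 in untreated cell 2. Their summed level was 1119 CPM (estimated counts per 1000000 of a library) in DASHed cell 2 and 1316 to 4199 CPM in the other DASHed cells, and 303 CPM in untreated cell 2 and 295 to 956 CPM in the other untreated cells. The epithelial adhesion gene EPCAM itself had no count in DASHed cell 2 and 3.60 CPM in untreated cell 2, below the 10.1 to 54.2 CPM of the other libraries. Defining markers of leukocytes (8 genes), fibroblasts (6), endothelium (5) and erythroid cells (5) summed to at most 2.60 CPM per list in cell 2, and those of hepatocytes (4) were at 0. Of 4 neuronal markers RBFOX3 and SNAP25 were at 0 in cell 2 and the other 2 had counts. SYT1 was higher than in any other cell, at 109 CPM in DASHed cell 2 against 1.62, 67.3 and 0.638 in cells 1, 3 and 4, and at 43.0 against 3.503, 24.7 and 1.98 in the untreated arm. TUBB3 stood at 105 and 21.6 CPM, below the 304 and 53.8 CPM of cell 4. The sum of the 4 was 214 CPM in DASHed cell 2 (2.42 to 305 in the others) and 64.6 in untreated cell 2 (3.91 to 56.4), and its part in the differences below was not tested.

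Fewer genes were detected in cell 2 when all 8 libraries were thinned to the same 1018815 counts. A gene counted as detected with at least 1 count. Thinned DASHed cell 2 held 9897 genes, against 11506, 12214 and 12000 in DASHed cells 1, 3 and 4, which is 0.831 of their mean of 11907 ± 363 (SD, n = 3). Thinned untreated cell 2 held 9963 genes, against 10968, 11579 and 11555, or 0.876 of the mean of 11367 ± 346 (SD, n = 3). In both arms cell 2 lay outside the range of the other cells, by 1609 and 1005 genes. With more counts required per gene, the deficit was seen in the DASHed arm alone. With at least 10 counts required, DASHed cell 2 kept the lowest number, 5133 genes against 5768 to 6404. Untreated cell 2 had 4472 such genes, inside the 4191 to 4636 of the other cells. Thinning kept rRNA in, so depth outside rRNA was not equal. Before thinning, untreated cell 2 held 1505387 counts outside rRNA, against 1077290 to 1268158 in the other untreated cells. With rRNA left out before thinning, it held 12124 genes with at least 1 count, against 14282 to 14695. The requirement of 10 counts was not run that way.

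Cell 2 was the lowest cell in each of the classes of gene counted. Protein-coding genes detected at equal depth numbered 7810 in DASHed cell 2 (8998 to 9651 in the others) and 7807 in untreated cell 2 (8697 to 9260). Long non-coding genes numbered 1352 (1655 to 1876) and 1423 (1513 to 1737), and pseudogenes 462 (536 to 609) and 457 (480 to 591). The gap lay among genes of middle and low level in mini-bulk. Among protein-coding genes at 10 to 30 mini-bulk CPM, 56.3% were detected in DASHed cell 2 against 67.1% to 74.4% in the other DASHed cells, and 50.7% against 59.7% to 66.9% in the untreated arm. Above 300 mini-bulk CPM the shares were 98.8% and 100%, against 99.7% to 100% and 99.8% to 100% in the other cells.

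**Figure D1:**
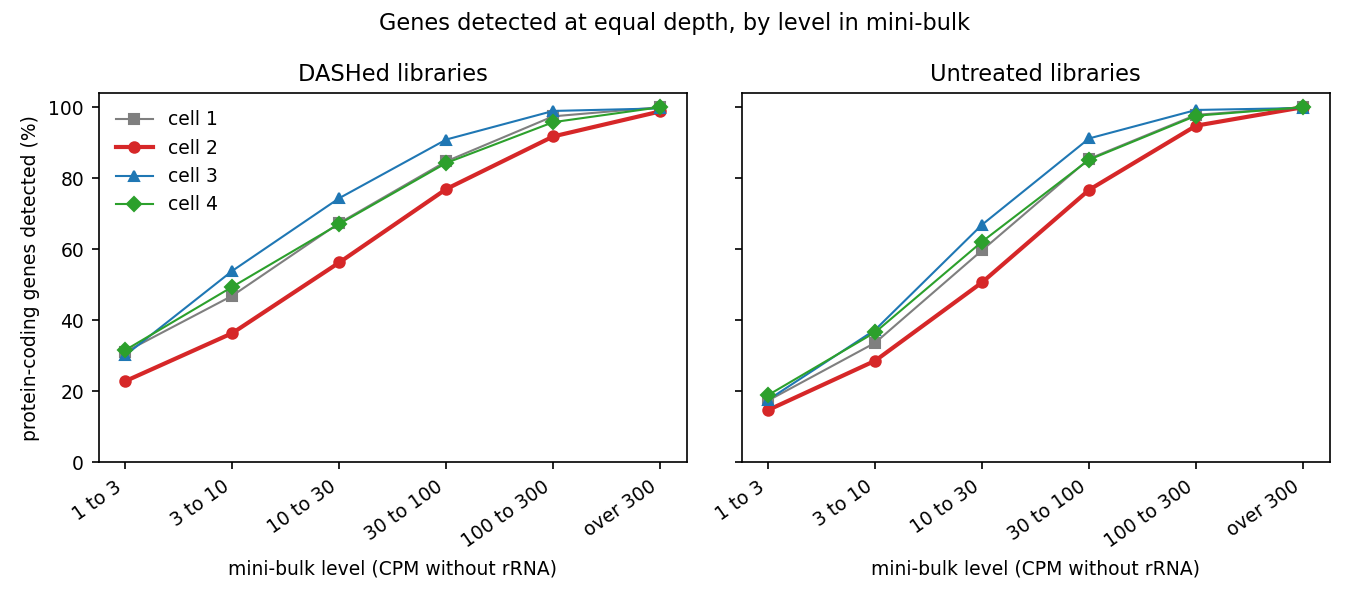
Share of protein-coding genes with at least 1 count (y, %) against the gene's level in the mini-bulk libraries of the same arm (x, bins of CPM without rRNA), at equal depth, 1 line per cell. The line of cell 2 runs lowest in every bin up to 300 CPM in both arms, for example at 56.3% in the DASHed bin from 10 to 30 CPM.

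Some genes that the other cells carried in every library had no count in cell 2, here in the full libraries without thinning. Of 3507 genes with at least 10 counts in each of the 6 other libraries, 208 (5.93%) had no count in either library of cell 2, and 199 of them code for protein. The same count gave 72 for cell 1, 12 for cell 3 and 73 for cell 4. In the reverse direction, 88 genes had at least 10 counts in both libraries of cell 2 and none in the other 6, against 149, 217 and 182 for cells 1, 3 and 4. Cell 2 was thus the cell with most absences and fewest private genes among the 4. It was chosen for few detected genes, so the absences partly restate that choice. Whether an absent gene was not expressed or was lost in capture or amplification was not tested. The counts of cell 2 were spread over fewer genes: outside rRNA, 519 genes made up 50% of the counts of DASHed cell 2 (603 to 629 in the others) and 621 those of untreated cell 2 (716 to 829).

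Mitochondrial rRNA and mRNA took a larger share of cell 2, and nuclear rRNA a smaller one. The 2 mitochondrial rRNAs made up 8.77% of the counts of DASHed cell 2, against 7.12%, 4.09% and 5.02% in cells 1, 3 and 4. In the untreated arm they made up 11.4% against 8.15%, 5.62% and 5.38%. Cell 2 was 1.62 and 1.78 times the mean of the others, and cell 1 was the next highest in both arms. Nuclear rRNA took 11.8% of DASHed cell 2 (17.3%, 16.4% and 15.8% in cells 1, 3 and 4) and 40.4% of untreated cell 2 (44.0%, 47.3% and 44.1%). The long intergenic RNA genes annotated inside 18S rRNA followed it, at 9.33% against 9.82% to 14.8% and at 21.1% against 26.0% to 29.2%. Shares add up to a fixed total, so a lower rRNA share raises every other share. With rRNA left out, the mitochondrial mRNAs made up 1.89% of DASHed cell 2, inside the range of 1.504%, 1.36% and 1.90% in cells 1, 3 and 4. In untreated cell 2 they made up 8.37%, above the 6.97%, 6.64% and 6.97% of the others. Mitochondrial tRNA did not share the direction. It took 0.00599% of DASHed cell 2 (0.00494% to 0.0132% in the others) and 0.0107% of untreated cell 2, below the 0.0130% to 0.0233% of the others.

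Mitochondrial mRNAs encode core subunits of the respiratory chain. As a class they took 1.33% of DASHed cell 2 (0.926%, 0.945% and 1.23% in cells 1, 3 and 4) and 2.27% of untreated cell 2 (1.30%, 1.40% and 1.51%). Of their 13 transcripts, MT-ND4, MT-ND4L, MT-ND5, MT-CO3, MT-ATP6 and MT-CYB took a higher share than in any other cell of both arms. MT-ND4, a complex I subunit, took 0.281% against 0.148% to 0.164% and 0.597% against 0.255% to 0.310%. MT-ND3, another complex I subunit, went the other way, at 0.000491% against 0.00130% to 0.00159% and 0.00224% against 0.00245% to 0.00438%. The class was therefore not uniform.

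Histone mRNA of the replication-dependent genes, which S phase cells make in bulk, marked cell 1 and not cell 2. It took 1.41% of DASHed cell 1 and 0.222% of untreated cell 1. Cell 2 held 0.123% and 0.0254%, within the 0.0868% to 0.147% and the 0.0159% to 0.0262% of cells 3 and 4. A list of 10 well-studied long non-coding RNAs, among them MALAT1 and NEAT1, took 0.0322% of DASHed cell 2, with a 95% counting interval (exact binomial) of 0.0288% to 0.0359%, against 0.0417% to 0.0799% in the other cells. In untreated cell 2 it took 0.0363%, with an interval of 0.0347% to 0.0379% that holds the 0.0365% of cell 3. As a share of all counts, no lower value was therefore detectable there. With rRNA left out, the list took 0.134% of untreated cell 2, below the 0.224%, 0.173% and 0.202% of cells 1, 3 and 4. In the DASHed arm it then took 0.0459% of cell 2, against 0.0677%, 0.0681% and 0.124%. MALAT1, a nuclear speckle RNA, took 0.00265% of DASHed cell 2 and 0.0102% to 0.0115% of the other DASHed cells.

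**Figure D2:**
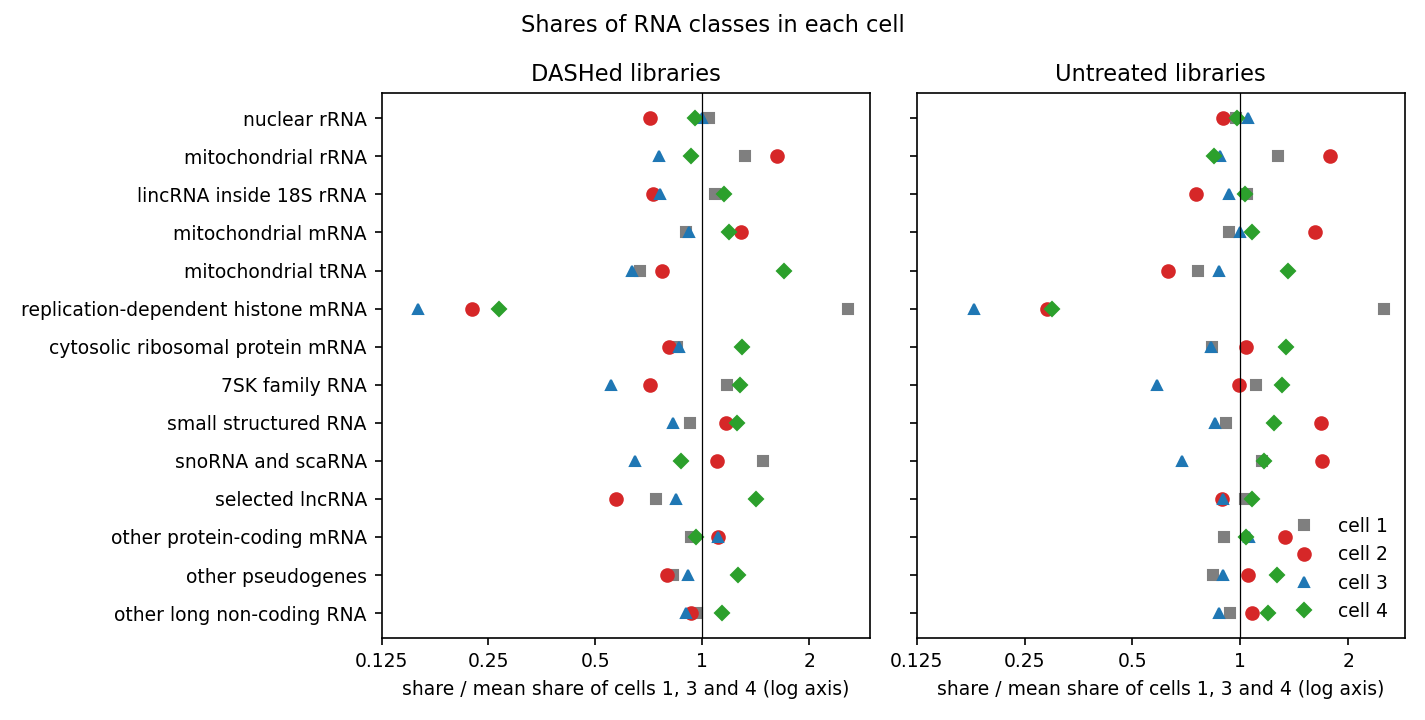
Share of each RNA class in each library divided by the mean share of cells 1, 3 and 4 of the same arm (x, log axis), 1 marker per cell. Spliceosomal snRNA, with 3 and 51 counts in cell 2, is left out. Cell 2 stands at 1.62 and 1.78 for mitochondrial rRNA, and cell 1 stands apart for histone mRNA.

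Differences per gene were taken as log2(CPM + 1) in cell 2 minus the mean of cells 1, 3 and 4, within each arm, then averaged over both arms. CPM here is taken of a library total scaled by the TMM method, and because untreated libraries hold more rRNA, other genes have lower CPM there. A gene was called higher when cell 2 lay above all 3 other cells in both arms and the mean difference was at least 1, and lower in the mirror case. Of 7827 genes with a mean of at least 10 counts in each arm, 1455 (18.6%) were higher and 1692 (21.6%) lower in cell 2. The rule applied to the other cells called 17.4% higher and 13.7% lower for cell 1, 18.2% and 9.77% for cell 3, and 18.9% and 14.9% for cell 4. Cell 2 thus had the largest share of lower genes of the 4 cells under this rule, while its share of higher genes was like theirs. As cell 2 was chosen for the fewest detected genes, a large share of lower genes goes with that choice. The filter on mean counts includes cell 2, so a higher gene can pass it through cell 2 alone. With CPM of the plain total, 20.9% were higher and 19.8% lower in cell 2, and the other cells were not scored that way. No count was found in either library of cell 2 for 441 of the lower genes (26.1%), and 30 of the higher genes had none in the other 6 libraries. For such genes the size of a log2(CPM + 1) difference depends on the 1 that is added. Cell 2 also had the lowest total of each arm, and the part of depth in these differences was not tested.

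The median difference over all 7827 genes was -0.31, and -0.15 when CPM was taken of the plain total, a shift of 0.16. The counts of members called in the lists below are to be read against 18.6% higher and 21.6% lower, and the list medians against -0.31. Medians of the DASHed and untreated arms differed in sign for G1/S genes (-0.18 and 0.25), translation factors (-0.18 and 0.09) and tubulins and actins (-0.10 and 0.24). The same held for the CCT chaperonin (-0.23 and 0.24), hnRNP and SR proteins (-0.03 and 0.03), cohesin and condensin (0.02 and -0.09) and the Wnt genes below. The list medians also depended on which cells were compared. Leaving out 1 of the 3 other cells moved the median by over 1.5 times, or changed its sign, in 28 of 31 lists, the exceptions being mitochondrial mRNAs, ribosome biogenesis and the long non-coding RNAs. Within 0.1 of the threshold lay 56 higher genes just inside and 44 just outside, and 40 lower genes just inside and 23 just outside. The level of a gene in mini-bulk went with the difference. Over 4 bins of that level with about equal numbers of genes, from the lowest to the highest, the median difference was -1.40, -0.62, -0.18 and 0.14, although Spearman's correlation across genes was 0.090, so a list's median also reflects how abundant its members are. The share of higher genes rose over 4 such bins of transcript GC content, from 15.4% through 18.1% and 19.0% to 22.0%, while the share of lower genes was 22.1%, 23.0%, 21.7% and 19.96%. Over 4 bins of transcript length the median difference lay between -0.41 and -0.22. These values are across genes that share the same libraries.

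**Figure D3:**
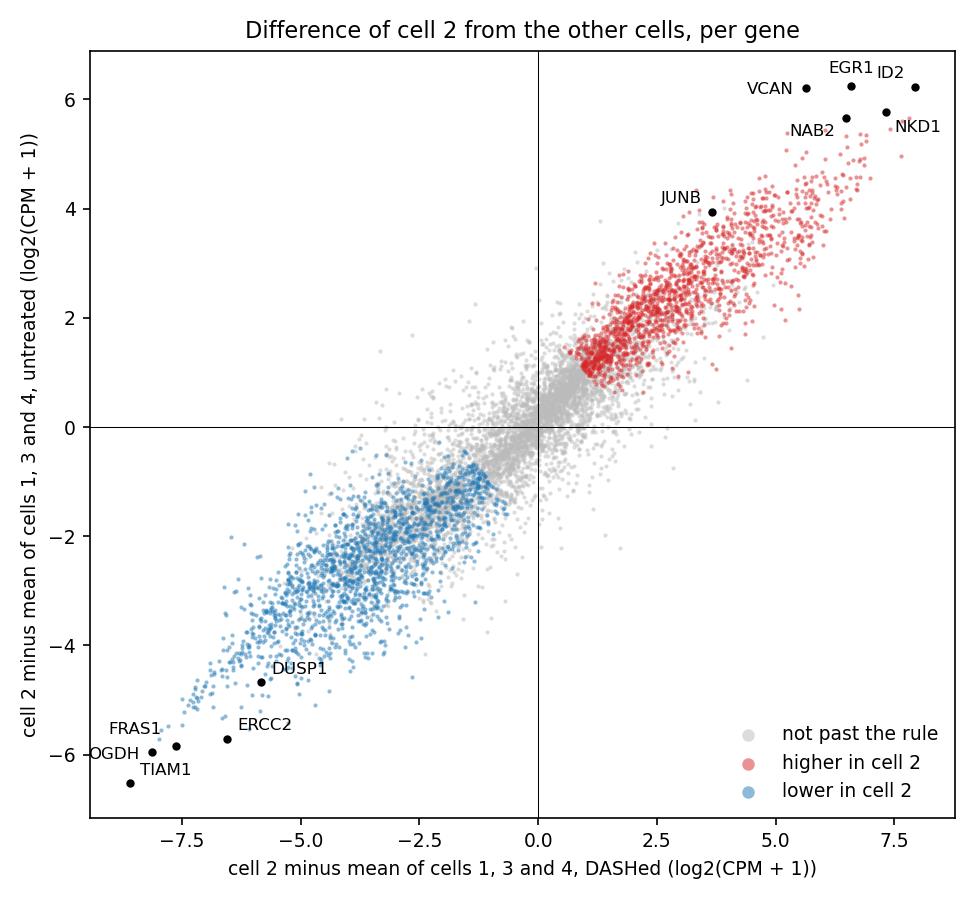
Each point is 1 of 7827 genes: difference of cell 2 from the mean of cells 1, 3 and 4 in the DASHed arm (x) and the untreated arm (y), in log2(CPM + 1). Genes past the rule are red (1455 higher) or blue (1692 lower), and the arms correlate at 0.94 across genes.

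The coding gene farthest above the other cells, by the smaller of its 2 arm differences, was an immediate-early gene. EGR1 (ENSG00000120738.7, chromosome 5, 138465490 to 138469315, plus strand, GENCODE release 29) encodes a zinc-finger transcription factor induced by growth factors. It stood at 1831 CPM in DASHed cell 2 against 239, 0.641 and 16.6 in cells 1, 3 and 4, and at 480.1 in untreated cell 2 against 46.3, 0 and 4.29. Cell 1 also carried it, and cells 3 and 4 held little, so the other cells differed widely among themselves. Cell 2 held 21.4 and 28.5 times the mean of the other 3. NAB2, a corepressor that binds EGR proteins, was likewise highest in cell 2 and next highest in cell 1, with little in cells 3 and 4. It stood at 604 CPM in DASHed cell 2 against 136, 1.28 and 0 in cells 1, 3 and 4, and at 159 in untreated cell 2 against 25.5, 0.18 and 0.

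The promoters of EGR1 and NAB2 are shown because both genes were high in cell 2, next highest in cell 1 and low in cells 3 and 4. They are RefSeq promoters of GRCh38.p14, from 250 bases before to 50 after the start, chr5:138465229-138465528 and chr12:57088864-57089163, both on the plus strand. Capitals mark matches, on either strand, to the EGR motif GCGNGGGCG and to the CArG box that serum response factor binds.

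EGR1: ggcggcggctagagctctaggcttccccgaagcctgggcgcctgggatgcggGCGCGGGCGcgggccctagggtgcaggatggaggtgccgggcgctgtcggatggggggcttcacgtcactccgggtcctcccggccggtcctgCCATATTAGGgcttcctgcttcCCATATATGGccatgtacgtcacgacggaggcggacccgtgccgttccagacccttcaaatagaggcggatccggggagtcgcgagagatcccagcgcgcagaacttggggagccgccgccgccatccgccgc

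NAB2: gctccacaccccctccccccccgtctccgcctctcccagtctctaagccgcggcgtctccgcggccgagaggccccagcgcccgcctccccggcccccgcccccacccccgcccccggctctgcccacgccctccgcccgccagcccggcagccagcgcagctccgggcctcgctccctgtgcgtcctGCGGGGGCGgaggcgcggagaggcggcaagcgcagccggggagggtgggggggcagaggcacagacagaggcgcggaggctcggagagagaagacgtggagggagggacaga

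The EGR motif begins 198 bases before the EGR1 start and 62 bases before the NAB2 start. CArG boxes lie 105 and 83 bases before the EGR1 start, and neither motif overlaps the other. Of 35116 promoters of the same length, 9.43% hold the EGR motif and 1.29% a CArG box. The promoter of JUNB, another gene high in cell 2, holds neither in this window. Promoters of the immediate-early genes compared below were searched too. NAB2 is not on that list and was added because it was high in cell 2. With it, the EGR motif occurred in 2 of 4 higher genes (EGR1 and NAB2, but not JUNB or ZFP36). It also occurred in 3 of 11 immediate-early genes not called higher, which include the lower gene DUSP1. The higher genes KLF10 and IER3 had no promoter to search. A match is a run of letters and no evidence of binding.

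Among 18 immediate-early genes compared, of 20 in the table, 5 were higher (27.8%, against 18.6% of all genes) and 1 lower (5.56%, against 21.6%). Their median difference was 0.26, and -0.18 without cell 1. The higher members were EGR1, JUNB, KLF10, ZFP36 and IER3, and the lower one was DUSP1. JUNB, an AP-1 subunit, stood at 1585 CPM in DASHed cell 2 against 149, 59 and 219 in cells 1, 3 and 4, and at 358 in untreated cell 2 against 26.1, 13.2 and 31.9. KLF10, a zinc-finger factor induced by TGF-beta, stood at 777 CPM in DASHed cell 2 against 74.3, 55.1 and 251 in cells 1, 3 and 4, and at 276 in untreated cell 2 against 24.1, 15.3 and 102.7. ZFP36, which promotes decay of AU-rich mRNAs, differed by 2.31 and IER3 by 1.45. DUSP1, the phosphatase that switches off MAP kinases and is normally induced with EGR1, stood at 0.927 CPM in DASHed cell 2 against 178, 76.9 and 95 in cells 1, 3 and 4, and at 0 in untreated cell 2 against 37.6, 21.6 and 17.8. In DASHed cell 2 that is 1 count, so the other cells held 126 times its level with a 95% counting interval of 21.6 to 4783, and at least 53.9 times in the untreated arm, with the absent side set at 3 counts. FOS, FOSB, JUN, JUND and the other members compared did not pass the rule. In cell 2, 3 members of the list had no count in either library. JUNB shares at least 10% of its 31-base words with transcripts of other genes, and its estimated counts are less certain for that.

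The other coding genes farthest above the rest include regulators of development and signalling. ID2, a helix-loop-helix protein that blocks differentiation factors, stood at 608 CPM in DASHed cell 2 against 3.23, 0 and 2.55 in cells 1, 3 and 4, and at 160.1 in untreated cell 2 against 2.92, 0 and 1.49. NKD1, an inhibitor of Wnt signalling that Wnt itself induces, stood at 196 CPM in DASHed cell 2 against 0.808, 0 and 0 in cells 1, 3 and 4, and at 60.3 in untreated cell 2 against 0.195, 0 and 0.166. Its ratio to the other cells was 726 (95% counting interval 152 to 33881) and 502 (139 to 4183), because the other libraries held at most 1 count each. DLX2, a homeobox factor, stood at 222 CPM in DASHed cell 2 and 49.7 CPM in untreated cell 2. All 6 other libraries were at 0, so cell 2 was at least 107 and 92.0 times higher. Counting intervals and bounds cover counting error only.

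A second set codes for cell surface and matrix proteins. VCAN, the matrix proteoglycan versican, stood at 107 CPM in DASHed cell 2 against 0, 8.97 and 0 in cells 1, 3 and 4, and at 154 in untreated cell 2 against 0.195, 6.67 and 0. TMEM25, an immunoglobulin-domain membrane protein, stood at 279.9 CPM in DASHed cell 2 against 1.62, 0 and 0 in cells 1, 3 and 4, and at 58.9 in untreated cell 2 against 0.195, 0.542 and 0. TAS1R3, a subunit of the sweet and umami taste receptors, had no count in the other 6 libraries and stood at 169 and 42.8 CPM in cell 2, at least 80.8 and 79.3 times higher. PROCR, the receptor of protein C, stood at 172 CPM in DASHed cell 2 against 0.808, 0 and 0.651 in cells 1, 3 and 4, and at 42.3 in untreated cell 2 against 0, 0 and 0.185. The last 3 coding genes were CCDC40, needed for motile cilia, the CoREST-family corepressor RCOR2 and AC137834.1, with mean differences of 6.07, 6.08 and 5.99. RCOR2 was absent from the other 6 libraries, at 119.5 and 36.8 CPM in cell 2. The farthest non-coding genes were LINC01772, AC002470.2, the pseudogene MSL3P1 and AC009053.1, with mean differences of 5.75, 5.91, 5.32 and 5.52. PROCR, AC137834.1 and these 4 share at least 10% of their words with other genes.

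On the lower side, the rule for naming took genes with at least 50 counts in each library of the other cells, and 9 of the 12 coding genes had no count in DASHed cell 2, 5 none in untreated cell 2 and 3 none in either. TIAM1 (ENSG00000156299.13, chromosome 21, 31118416 to 31559977, minus strand) activates the small GTPase Rac. It stood at 0 CPM in DASHed cell 2 against 423, 448 and 307 in cells 1, 3 and 4, and at 0 in untreated cell 2 against 105, 109.7 and 64.4. The other cells were at least 141 and 196 times higher. OGDH, the first enzyme of the 2-oxoglutarate dehydrogenase complex in the citric acid cycle, stood at 0 CPM in DASHed cell 2 against 206, 346 and 313 in cells 1, 3 and 4, and at 0.00114 in untreated cell 2 against 45.4, 74.7 and 67.7. FRAS1, a basement membrane protein, stood at 0 CPM in DASHed cell 2 against 323, 194 and 122 in cells 1, 3 and 4, and at 0 in untreated cell 2 against 91.9, 52.9 and 37.3. No other cell fell below 37.3 CPM for any of these 3 genes.

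ERCC2, the helicase of transcription factor TFIIH used in transcription and nucleotide excision repair, stood at 1.85 CPM in DASHed cell 2 against 258, 272 and 267 in cells 1, 3 and 4, and at 0 in untreated cell 2 against 48.5, 57.7 and 48.1. The spread of its 3 other DASHed cells was 258 to 272 CPM. SNX17, an endosomal sorting protein, stood at 0 CPM in DASHed cell 2 against 203, 242 and 221 in cells 1, 3 and 4, and at 0 in untreated cell 2 against 41.5, 46.1 and 43.1. CELSR1, a planar polarity cadherin, stood at 0 CPM in DASHed cell 2 against 239.9, 306 and 199.6 in cells 1, 3 and 4, and at 0.317 in untreated cell 2 against 54.3, 77.2 and 52.2. For these 3 genes the other cells spanned less than 2-fold within an arm. TNS4, a tensin of focal adhesions, varied more, at 0 CPM in DASHed cell 2 against 57.4, 433 and 649.7 in cells 1, 3 and 4, and at 0.159 in untreated cell 2 against 13.4, 104 and 149.6. ERRFI1, a feedback inhibitor of the EGF receptor, stood at 0 CPM in DASHed cell 2 against 198, 342 and 84.8 in cells 1, 3 and 4, and at 1.27 in untreated cell 2 against 110.4, 132 and 64.5.

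The remaining coding genes were the guanine nucleotide exchange factor ARHGEF1, the GPI-anchor transamidase subunit GPAA1, the flotillin FLOT2 and TMC5, with mean differences of -5.99, -5.95, -6.34 and -5.53. In none of the 4 did either library of cell 2 exceed 0.927 CPM. Non-coding genes were less far apart: PKD1P6, LINC01001, GOLGA2P7 and FP236383.1 differed by -3.97, -3.48, -3.55 and -2.48, and each kept counts in cell 2. TMC5 and these 4 share at least 10% of their words with other genes.

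**Figure D4:**
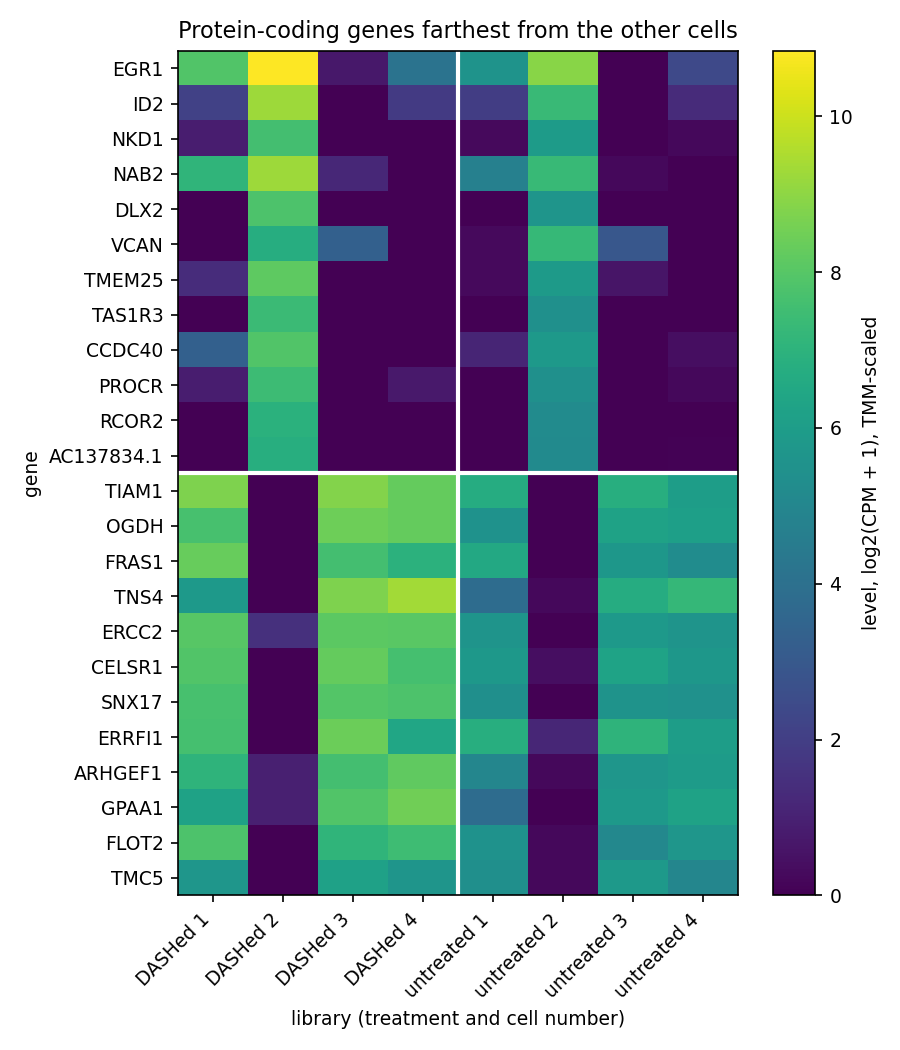
Level in log2(CPM + 1) (colour) of the 12 coding genes farthest above and the 12 farthest below the other cells (rows) in the 8 single-cell libraries (columns). The column of cell 2 is bright where the others are dark in the upper rows, with EGR1 and NAB2 also present in cell 1, and the reverse in the lower rows.

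Cell cycle genes were compared by phase. Counts allowed 35 of 46 G1/S and DNA replication genes to be compared, of which 2 were higher and 10 lower, at a median difference of -0.08. The lower ones include RPA2, a subunit of the single-strand binding complex (-4.44), the helicase subunit MCM6 (-3.91), the helicase BLM (-3.44), GINS2, UNG and PCNA. PCNA, the sliding clamp of replication, stood at 15.8 CPM in DASHed cell 2 against 40.4, 145 and 36.3 in cells 1, 3 and 4, and at 10.95 in untreated cell 2 against 21.0, 45.8 and 17.2. SLBP, which binds histone mRNA, and the polymerase subunit POLA1 were higher, by 2.33 and 1.49. The call of MCM6 is lost when counts of 0 are set at 3 counts, where its difference is -2.67.

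G2 and mitosis genes, 41 compared of 58, included 10 higher and 10 lower members (24.4% each, near the 18.6% and 21.6% of all genes), with a median difference of 0.14. CDC25C, the phosphatase that starts mitosis by activating CDK1, stood at 54.7 CPM in DASHed cell 2 against 0, 0.641 and 0 in cells 1, 3 and 4, and at 10.2 in untreated cell 2 against 0, 0.902 and 0. AURKA, a spindle pole kinase, stood at 68.6 CPM in DASHed cell 2 against 0, 0 and 29.97 in cells 1, 3 and 4, and at 29.4 in untreated cell 2 against 0, 0 and 15.9. Cell 4 carried AURKA too, and cells 1 and 3 had none. NUSAP1, LBR, CKS2, CENPF, ECT2, TPX2, CKS1B and ANLN were also higher, by 1.04 to 3.60. On the lower side CDCA8, a subunit of the chromosomal passenger complex, differed by -3.94, and CCNB2, TACC3, CBX5 and KIF2C by -3.87 to -3.31. AURKA shares at least 10% of its words with other genes.

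Of 24 G1 cyclins, CDK inhibitors and RB-E2F genes 14 passed the count filter, and 0 were higher and 2 lower in cell 2. The median difference was 0.38, but 0.11 in the DASHed arm and 0.25 in the untreated arm alone, and -0.18 without cell 4. E2F2, an activator of S phase genes, stood at 0 CPM in DASHed cell 2 against 149.8, 82.7 and 3.19 in cells 1, 3 and 4, and at 0 in untreated cell 2 against 29, 22.4 and 0.825. SKP2, which marks the inhibitor p27 for destruction, differed by -2.90, and its call is lost when counts of 0 are set at 3 (-1.94). Among 36 replication-dependent histones compared, of 71 in the table, 1 was higher and 6 lower, and the median difference was -1.52. The lower ones were led by HIST2H2AB (-5.37), HIST1H2BC (-4.76) and HIST1H2AJ (-4.32), which share words with other histone genes, and 13 members had no count in cell 2. With cell 1 left out the median of the histone list was 0, so its value rests on that cell. Cohesin and condensin had 1 lower member among 12, SMC4, at -2.20, and a median of 0.00. SMC4 shares at least 10% of its words with other genes.

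BCL2 family and apoptosis genes, 10 compared of 23, included 3 higher and 0 lower members, with a median difference of 0.48, which was 0.016 without cell 1 and 0.83 without cell 4. The higher ones were the initiator caspase CASP9 (3.79), BAD (3.18) and DIABLO (2.51). BAD and DIABLO share at least 10% of their words with other genes.

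Stress programmes of protein folding, in the endoplasmic reticulum and in the cytosol, are given in turn. Of 22 unfolded protein and integrated stress response genes 17 passed the count filter, and 5 were higher and 1 lower in cell 2, with a median difference of 0.38, or 0.13 without cell 3. HERPUD1, a degradation factor of the reticulum, VEGFA, PPP1R15A, ATF6 and the chaperone HSPA5 were higher, by 2.99, 2.81, 2.56, 2.39 and 1.25. HSPA5 stood at 437 CPM in DASHed cell 2 against 143, 211 and 258, and at 166 against 41.4, 79.3 and 79.7 in the untreated arm. The sensor ERN1 was nearly absent, at 0 CPM in DASHed cell 2 against 53.2, 69.9 and 52.2 in cells 1, 3 and 4, and at 0.69 in untreated cell 2 against 10.8, 21.4 and 11.4. Among 14 heat shock chaperones compared, of 16 in the table, 1 was higher and 5 lower, and the median difference was -0.41, but 0.080 without cell 3 and 0.061 without cell 4. HSPA4, DNAJA1 and HSPA9 differed by -2.47, -2.31 and -2.16, DNAJB1 and HSPD1 by -1.49 and -1.04, and HSPB1 was higher by 1.31. HSPA4 loses its call with a pseudocount of 10 CPM (-0.88). The CCT chaperonin had CCT8 as its 1 lower member of 8 (-1.0). That call lies at the threshold and is lost with CPM of the plain total (-0.83), with DESeq2 size factors (-0.95), with a pseudocount of 10 CPM (-0.72), in the untreated arm alone (-0.44) and without cell 1 (-0.98) or cell 3 (-0.89). CCT8 shares at least 10% of its words with other genes.

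Nuclear genes complete the respiratory chain that the mitochondrial mRNAs begin. Counts allowed 67 of 81 nuclear-encoded respiratory chain genes to be compared, of which 8 were higher and 19 lower, at a median difference of -0.49, which was -0.75 without cell 3 and -0.19 without cell 4. NDUFS7, a complex I subunit, stood at 0.938 CPM in DASHed cell 2 against 95.3, 68.3 and 158 in cells 1, 3 and 4, and at 0.159 in untreated cell 2 against 21, 16.3 and 35.5. NDUFA2 differed by -3.51, and ATP5MC2, a ring subunit of ATP synthase, was higher by 3.499. This stands beside the higher share of mitochondrial mRNAs above, among which only MT-ND4L (1.004) was called higher per gene and MT-ND3 (-1.14) lower. MT-ND4L lies at the threshold and falls below it without cell 1 (0.96) or cell 3 (0.94) and with a pseudocount of 10 CPM (0.94). The call of MT-ND3 is lost with CPM of the plain total (-0.98), with a pseudocount of 10 CPM (-0.68) and in the untreated arm alone (-0.78). NDUFS7, NDUFA2, ATP5MC2 and MT-ND4L share at least 10% of their words with other genes.

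Glycolysis and lactate genes, 20 compared of 20, included 0 higher and 4 lower members (20%, near the 21.6% of all genes). Their median difference was -0.18, beside -0.31 for all genes. The summed level of the list was above that of every other cell. It was 11134 CPM in DASHed cell 2 (8920 to 10183 in the others) and 3130 in untreated cell 2 (2117 to 2666). The lower ones were PFKL, the liver-type phosphofructokinase (-4.54), the lactate carrier SLC16A1 (-4.10), hexokinase HK1 (-3.62) and GPI (-3.46). SLC16A1 stood at 0.927 CPM in DASHed cell 2 against 12.9, 39.7 and 42.1 in cells 1, 3 and 4, and at 0 in untreated cell 2 against 15.6, 18.8 and 21.6. The call of HK1 is lost when counts of 0 are set at 3 (-2.66). Of 25 cholesterol synthesis and uptake genes 20 passed the count filter, and 6 were higher (30%) and 5 lower (25%) in cell 2, beside 18.6% and 21.6% of all genes, with a median difference of -0.29. The summed level of the 25 genes was above that of every other cell. It was 7446 CPM in DASHed cell 2 (3900 to 6587 in the others) and 2140 in untreated cell 2 (1056 to 1954). SQLE and MVK, which act in squalene and mevalonate metabolism, differed by -4.52 and -3.96, and HMGCS1 and INSIG1 by -3.14 and -2.33. CYP51A1, NSDHL, FDFT1, DHCR7 and SREBF2 were higher, by 1.03 to 3.39. Among 18 redox enzymes compared, of 22 in the table, 3 were higher and 4 lower, and the median difference was 0.37, or 0.12 without cell 1 and 0.20 without cell 3. SOD1, which converts superoxide, GPX1 and PRDX4 differed by -4.16, -4.04 and -2.18. CYP51A1 and GPX1 share at least 10% of their words with other genes.

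Genes that build ribosomes and genes that form them are given side by side. Counts allowed 27 of 35 ribosome biogenesis genes to be compared, of which 5 were higher and 1 lower, at a median difference of 0.50. NOP56 and FBL, of the box C/D particle, PES1, BOP1 and POLR1A were higher, by 1.03 to 1.37, and NOP58, also of that particle, differed by -2.18. NOP56 stood at 476 CPM in DASHed cell 2 against 146, 262 and 134 in cells 1, 3 and 4, and at 172 in untreated cell 2 against 56.6, 106 and 57.6. Cytosolic ribosomal proteins, 78 compared of 82, included 2 higher (2.56%) and 10 lower members (12.8%). Both shares were under the 18.6% and 21.6% of all genes. The median difference was -0.29, near the -0.31 of all genes. FAU, which encodes a ribosomal protein fused to a ubiquitin-like part, stood at 1.85 CPM in DASHed cell 2 against 233, 72.2 and 165 in cells 1, 3 and 4, and at 0.794 in untreated cell 2 against 49, 15.7 and 27.6. RPS9 and RPL31 differed by -3.58 and -1.57, and RPS28 and RPS15 were higher by 1.07 and 1.15. Of 78 mitochondrial ribosomal proteins 51 passed the count filter, and 8 were higher and 14 lower in cell 2, with a median difference of -0.13. MRPL23 and MRPL35 were higher, by 3.85 and 3.19, and MRPL4 differed by -3.50. FAU, RPS9, RPL31 and MRPL4 share at least 10% of their words with other genes.

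Among 35 translation factors compared, of 37 in the table, 4 were higher and 6 lower, and the median difference was -0.10. EIF1, which guards start codon choice, was higher by 2.40, and EIF4A2 and EEF1B2 differed by -3.67 and -2.34. Counts allowed 19 of 23 aminoacyl-tRNA synthetases to be compared, of which 5 were higher and 4 lower, at a median difference of -0.20. MARS, the methionine enzyme, was higher by 2.999, while CARS, the cysteine enzyme, stood at 0 CPM in DASHed cell 2 against 62.2, 87 and 158 in cells 1, 3 and 4, and at 0.952 in untreated cell 2 against 11, 19.3 and 38.3. LARS differed by -2.58. hnRNP and SR proteins, 28 compared of 30, included 3 higher and 6 lower members, with a median difference of 0.06. The splicing factors SRSF7 and HNRNPR differed by -3.90 and -2.26, and HNRNPDL by -2.18, a call lost in the untreated arm alone (-0.44) and with CPM of the plain total, where cell 2 is inside the range of the others. Of 28 snoRNA host genes 13 passed the count filter, and 2 were higher and 3 lower in cell 2, with a median difference of -0.52, or -0.85 without cell 3 and -0.18 without cell 4. SNHG7, SNHG20 and SNHG3 differed by -4.54, -3.14 and 2.69. EIF4A2, whose call is lost with counts of 0 set at 3 (-2.71), EEF1B2, MARS and these 3 host genes share at least 10% of their words with other genes.

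Among 31 proteasome genes compared, of 34 in the table, 5 were higher (16.1%) and 6 lower (19.4%), near the shares of all genes, and the median difference was 0.09. PSMB5, the chymotrypsin-like catalytic subunit, stood at 5.56 CPM in DASHed cell 2 against 119, 121 and 181 in cells 1, 3 and 4, and at 2.7 in untreated cell 2 against 40.5, 44.6 and 53.8. PSMC5, an ATPase of the cap, was higher by 2.38, and PSMA2 differed by -2.83. PSMA2 and PSMC5 share at least 10% of their words with other genes.

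Junction and keratin genes are the epithelial identity of this line. Counts allowed 25 of 35 epithelial junctions and keratins to be compared, of which 5 were higher and 9 lower, at a median difference of -0.59, which was -1.12 without cell 4. PKP3, a desmosomal plaque protein, stood at 0 CPM in DASHed cell 2 against 37.2, 64.1 and 82.9 in cells 1, 3 and 4, and at 0 in untreated cell 2 against 5.64, 15.7 and 17.3. CLDN7, a claudin of tight junctions, stood at 0 CPM in DASHed cell 2 against 87.2, 27.6 and 45.9 in cells 1, 3 and 4, and at 0 in untreated cell 2 against 19.9, 9.02 and 8.58. Its relatives CLDN4 and CLDN3 were higher, by 3.19 and 3.03, as was KRT80 (4.07). Cell 4 carried KRT80 too, and cells 1 and 3 had none. KRT80 stood at 77.8 CPM in DASHed cell 2 against 49.7 in cell 4, and at 26.7 against 7.94 in the untreated arm. The simple-epithelium keratin KRT18, EPCAM, TJP3 and the catenins CTNND1 and CTNNB1 were lower, with differences of -3.32 to -1.27.

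Annexins and S100 proteins, 13 compared of 19, included 3 higher and 6 lower members, with a median difference of -2.42. ANXA1, a calcium-dependent phospholipid-binding protein, stood at 0 CPM in DASHed cell 2 against 30.7, 35.9 and 14 in cells 1, 3 and 4, and at 0 in untreated cell 2 against 43.2, 41.5 and 19.8. S100A16, a calcium-binding protein, stood at 13.9 CPM in DASHed cell 2 against 200.3, 187 and 332 in cells 1, 3 and 4, and at 0.952 in untreated cell 2 against 35.6, 33.4 and 62.6. ANXA7 differed by -3.56, a call lost when counts of 0 are set at 3 (-2.32). S100A3, S100A6 and ANXA5 were higher, by 2.45, 1.66 and 1.17. The list median was -1.19 without cell 1 and -1.18 with counts of 0 set at 3, so its size rests on cell 1 and on absent genes. Of 31 tubulins, actins and actin regulators 29 passed the count filter, and 5 were higher and 2 lower in cell 2, with a median difference of 0.05. TUBB2A and TPM4 were higher, by 2.81 and 1.39, and the myosin light chain MYL12B differed by -3.03. All 3 share at least 10% of their words with other genes.

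Wnt signalling maintains the stem cells of colon epithelium. Of 24 genes of the pathway 15 passed the count filter, and 4 were higher and 3 lower, with a median difference of 0.06 in the DASHed arm and -0.03 in the untreated arm. NKD1 (above) and NOTUM, a secreted enzyme that inactivates Wnt ligands, were higher together with TCF7 and APC. NOTUM stood at 53.7 and 9.52 CPM in cell 2 and at 0 in the other 6 libraries, so cell 2 was at least 25.8 and 17.6 times higher. EPHB2, a receptor kinase of crypt cells, stood at 0 CPM in DASHed cell 2 against 126, 84.6 and 13.4 in cells 1, 3 and 4, and at 0 in untreated cell 2 against 21.2, 21.8 and 2.15. TCF7L1 and CD44 were lower, with differences of -2.63 and -1.77. Among 12 MHC class I and interferon genes compared, of 22 in the table, 2 were higher and 3 lower, and the median difference was -0.69, or -1.06 without cell 1 and -1.18 without cell 4. IRF1 and ISG15, both induced by interferon, were higher, by 4.39 and 4.02, and HLA-C and IRF9 were lower, with differences of -4.17 and -3.89. IRF1 and HLA-C share at least 10% of their words with other genes.

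Counts allowed 24 of 26 chromatin remodelling and DNA methylation genes to be compared, of which 5 were higher and 7 lower, at a median difference of 0.30. ARID1B and BRD9, subunits of SWI/SNF complexes, differed by -4.35 and -4.12, and SMARCD2, also of SWI/SNF, was higher by 3.49. The DNA demethylases TET2 and TET3 were higher, by 3.09 and 2.91. Nuclear pore genes, 23 compared of 26, included 2 higher and 5 lower members, with a median difference of -0.20. NUP155 and TPR differed by -4.10 and -4.07, and NUP58 was higher, at 316 CPM in DASHed cell 2 against 2.42, 54.5 and 65.1 in cells 1, 3 and 4, and at 119.5 in untreated cell 2 against 2.34, 28.8 and 27.4. Of the 10 long non-coding RNAs listed above 8 passed the count filter, and 0 were higher and 3 lower in cell 2, with a median difference of -0.54. The lower ones were NORAD, which is mainly cytoplasmic (-2.30), FTX (-1.66) and the nuclear MALAT1 (-1.50). Each passes in the DASHed arm and misses the threshold in the untreated arm alone, at -0.57, -0.65 and -0.88. NORAD also loses its call with CPM of the plain total, and FTX with a pseudocount of 10 CPM (-0.88). NORAD and FTX share at least 10% of their words with other genes.

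**Figure D5:**
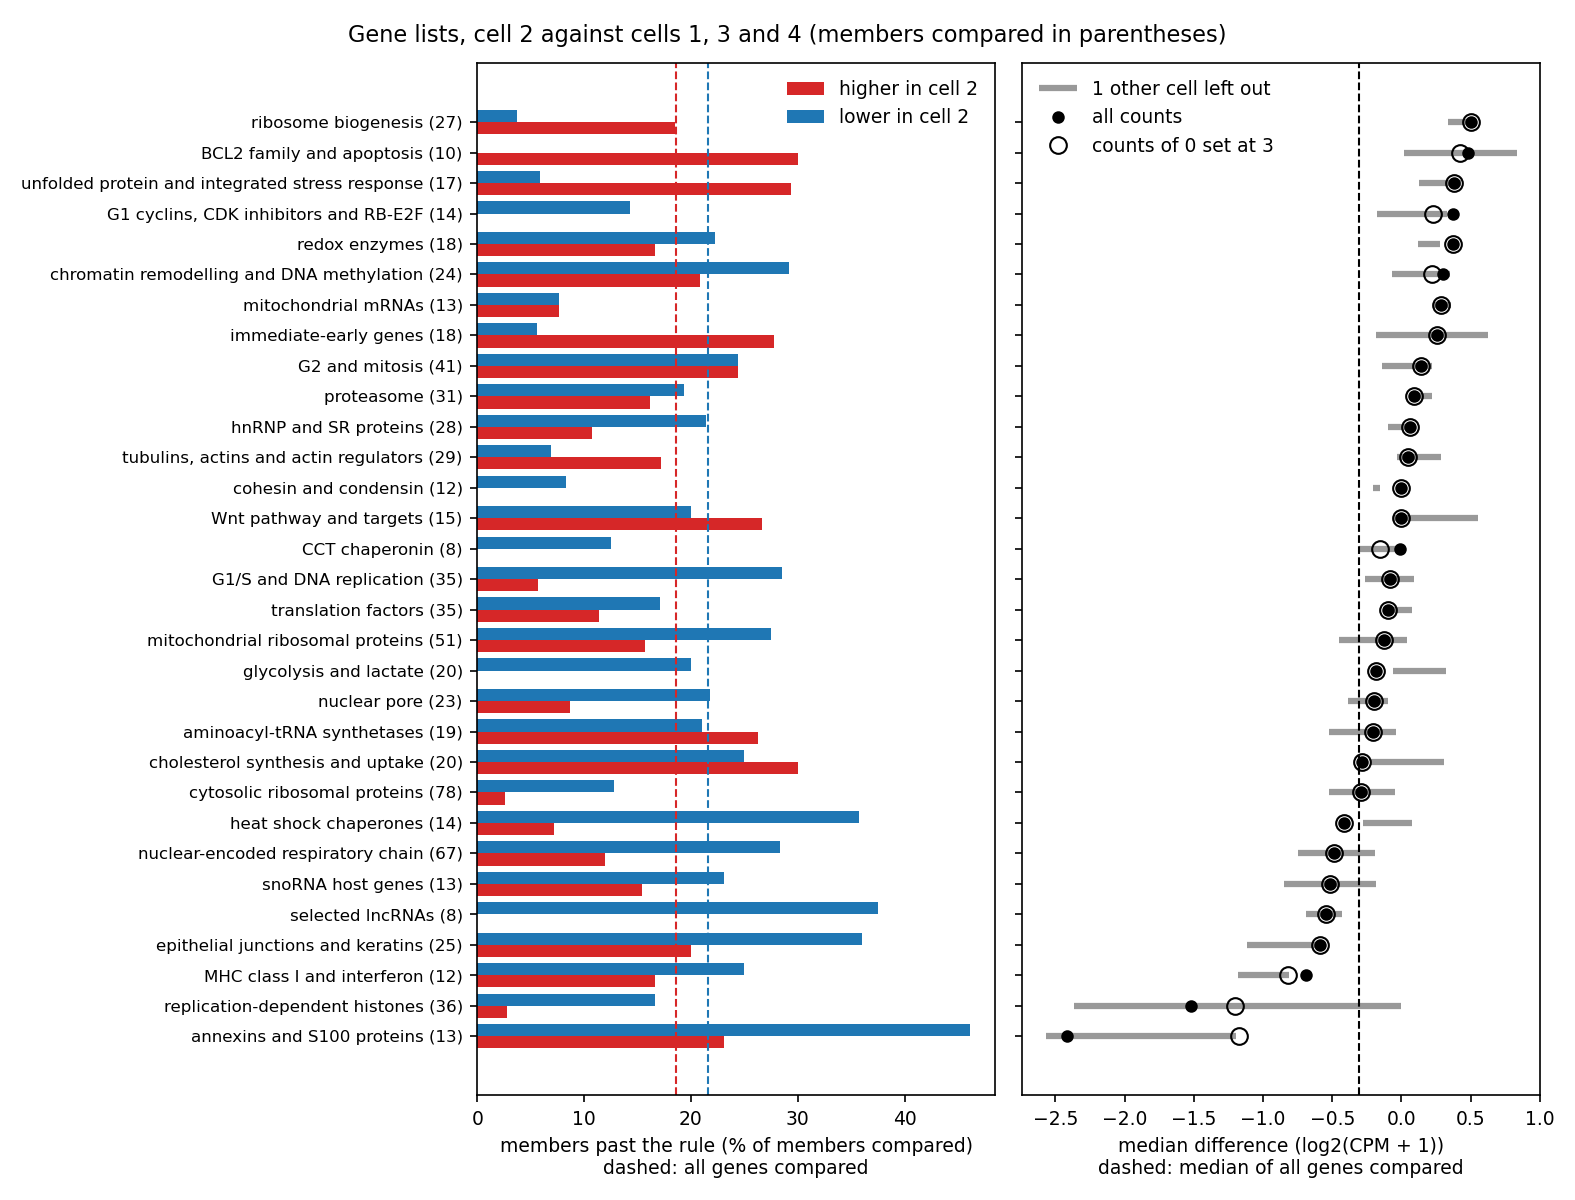
For 31 gene lists, share of members higher or lower in cell 2 (left, %) and median difference in log2(CPM + 1) (right), with all 7827 genes as dashed lines (18.6%, 21.6% and -0.31). Grey lines span the medians with 1 of the 3 other cells left out. Ribosome biogenesis genes have the highest median, 0.50, and annexins and S100 proteins the lowest, -2.42, which is -1.18 with counts of 0 set at 3.

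Across genes the levels of cell 2 correlated with mini-bulk at 0.56 in the DASHed arm (0.56 to 0.69 for the other cells) and 0.64 in the untreated arm (0.65 to 0.74). Pairs of cells that include cell 2 correlated at 0.35 to 0.40 (DASHed) and 0.43 to 0.48 (untreated), and pairs without it at 0.36 to 0.43 and 0.45 to 0.50. These are across genes that share libraries and are given as a description.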

How the data were processed

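Single-cell and mini-bulk MATQ-seq libraries of HCT116 were deposited as 1 table of estimated counts per gene, not normalized. Per the submitters' processing notes, the authors obtained these estimated counts with kallisto 0.46.2. For build, annotation, strand and the step from transcripts to genes, nothing is stated in the labels. Strand being unknown, a gene and an overlapping or antisense partner cannot be told apart. Of 57134 gene names, 52 damaged as currency formats were restored, and 57130 match GENCODE release 29, from which gene types and positions come.

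Groups and numbers were taken from the sample titles. Scaling factors were computed with edgeR 4.0.16 (TMM, within the 4 libraries of an arm), with DESeq2 1.42.0 size factors as an alternative. Levels were log2(CPM + 1). Genes needed a mean of at least 10 counts in each arm. No model was fitted to the counts, because each arm has 1 library per number and the arms may share cells, and the rule of size given above replaced a test. Same-numbered libraries of the 2 arms deviated together (correlations of 0.93 to 0.94, from the data and not from the labels). A gene is called uncertain where at least 10% of its 31-base words occur in other genes' transcripts.

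The text names, each way, the 12 coding and 4 other genes farthest from the other cells, ranked by the smaller arm difference among genes with at least 50 counts in each library of the higher side, and from each of 31 lists up to 3 members past the rule, or 2 where none passed. Further list members are given by name with their differences. These were chosen after their values were seen. A further list and a few genes of the other lists are not reported here. The members and lists were chosen with earlier results of these data known. Lists defined by name pattern were restricted to protein-coding genes, except the snoRNA host genes. Depth was 1018874 to 1573651 counts in DASHed and 5545355 to 6008358 in untreated cells. Alternatives covered scaling, filter, pseudocount, thinning, single arms and leaving out each other cell.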

Additional observations from a re-analysis of the deposited data

Results flagged for a closer look

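A library was singled out when the gap between the farthest of the 4 cells of an arm and its nearest neighbour took more of the whole range of the 4 than Dixon's 95% critical value for 4 samples allows. Chance alone flags about 1 in 20 such groups, and the named genes were chosen for their distance from the other cells, so flags on them are a consequence of the choice and support nothing. The value printed is that gap over the range, taken on log2(CPM + 1) for genes, where 1 means that the other 3 cells were equal.

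For the genes named, the far cell was cell 2 throughout. Higher genes in the DASHed arm were NKD1 0.888, DLX2 1, TMEM25 0.8295, TAS1R3 1, PROCR 0.885, RCOR2 1, AC137834.1 1, MSL3P1 0.885, CDC25C 0.877, NOTUM 1. In the untreated arm they were NKD1 0.957, DLX2 1, TMEM25 0.8942, TAS1R3 1, PROCR 0.955, RCOR2 1, AC137834.1 0.989, AC002470.2 1, MSL3P1 0.95, AC009053.1 0.975, MT-ND4L 0.871, NOTUM 1. Lower genes in the DASHed arm were TIAM1 0.938, OGDH 0.912, FRAS1 0.833, ERCC2 0.988, CELSR1 0.925, SNX17 0.968, ARHGEF1 0.845, FLOT2 0.91, TMC5 0.91, PKD1P6 0.852, DNAJA1 0.84, ERN1 0.933, EEF1B2 0.911, PSMB5 0.874, MALAT1 0.971, SNHG7 0.872. In the untreated arm they were TIAM1 0.888, OGDH 0.887, ERCC2 0.956, CELSR1 0.905, SNX17 0.973, FLOT2 0.891, TMC5 0.839, LINC01001 0.874, SLC16A1 0.9002, PSMB5 0.897, SOD1 0.837, SMC4 0.831. Ratios of 1 belong to genes with no count in the other cells of that arm (DLX2, TAS1R3, RCOR2 and NOTUM in both).

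Shares of RNA classes stood apart in cells other than cell 2. Histone mRNA was far in cell 1, with a ratio of 0.954 in the DASHed arm and 0.95 in the untreated arm. Mitochondrial tRNA (0.874) and cytosolic ribosomal protein mRNA (0.89) were far in DASHed cell 4. Mitochondrial rRNA and nuclear rRNA of cell 2 were outside the range of the other cells without reaching this ratio.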

How the results depend on the processing

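No paired analysis was possible because the comparison is between the replicate numbers themselves and no value comes from a test. The ratio of genes detected in cell 2 to the mean of the other cells, 0.831 (DASHed) and 0.876 (untreated) at equal depth, was 0.776 without thinning in the DASHed arm and 0.837 with rRNA left out in the untreated arm. With at least 10 counts required it was 1.02 in the untreated arm, where cell 2 was not the lowest. Leaving out 1 of the other cells gave 0.817 to 0.842 and 0.861 to 0.885. The 1455 higher and 1692 lower genes became 701 and 768 of 3491 with a mean of at least 50 counts required, and 2408 and 2151 of 25222 with no filter. Leaving out 1 of the other cells gave 1715 to 1815 higher and 2042 to 2279 lower genes, since a range of fewer cells is easier to leave. Other scalings, a pseudocount of 10 CPM, either arm alone and counts of 0 set at 3 (chosen after seeing the data) gave 1270 to 1725 higher and 1266 to 2048 lower genes. CPM of the plain total kept all 1455 higher and 1546 of the lower genes and moved the share of higher calls from 46.2% to 51.4%. None of the 117 genes that the naming rule chose changed the sign of its difference under these alternatives, which were not run for the other genes named. The median difference changed sign under at least 1 alternative in 15 of the 31 gene lists, all with a median within 0.41 of 0 on the log2 scale. Counts limit the absences: in DASHed cell 2 the floor of 3 counts is 2.94 CPM of the plain total and in untreated cell 2 it is 0.541.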
